A study of Mus musculus with 24 samples.

Results

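The cell cycle and DNA replication genes were followed through postnatal development of peripheral nerve fibres in mice. The 47 genes were chosen by name, from cyclins and cyclin-dependent kinases to the replicative helicase, the mitotic kinases and the spindle machinery, out of 37074 gene names on the array. Each gene was read from its brightest probe, and all 47 were measured well enough to be tested. The samples were efferent nerve fibres (EN, from the ventral roots) and afferent nerve fibres (AN, from the dorsal roots) of lumbar segments L4 to L6 of C57BL/6 mice. Tissue was taken at P0, the day of birth, and at 1, 3 and 5 weeks of age (1 W, 3 W and 5 W), which gave 8 groups of 3 samples on 24 one-colour arrays. No treatment or genetic change was part of the design. The methods describe 9 animals at each age and 8 collection tubes, and name 3 independent experiments per group without saying how many animals stand behind a sample, so p-values measure the spread between these samples.

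Cells enter the cycle when D-type cyclins and their kinases Cdk4 and Cdk6 release E2f factors from the retinoblastoma proteins. The E2f factors switch on the genes for origin licensing and DNA synthesis, and cyclin A and cyclin B with Cdk1 then carry the cell into mitosis, where the spindle checkpoint holds back anaphase until chromosomes are attached. In nerve roots around birth, Schwann cells are the main dividing population, and they leave the cycle as they begin to myelinate axons.

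Promoter sequence was available for 38 of the 47 genes in RefSeq windows of 300 bases (250 before and 50 after the transcription start, build GRCm38.p6). Windows were searched on both strands for E2f sites (TTTCCCGC, TTTCGCGC, TTTGCCGC or TTTGGCGC), for CCAAT boxes (CCAAT) and for the cell cycle genes homology region, CHR (TTTGAA or TTCGAA), an element of late cell cycle promoters. An E2f site was found in 8 members (21.1%), against 2.32% of all 27025 windows, and in 6 of the 7 windows of origin licensing and helicase genes. A CHR was found in 18 members (47.4%), against 19.4% of all windows, and a CCAAT box in 28 members (73.7%), against 37.9%. A CHR together with at least 2 CCAAT boxes was found in 12 members (31.6%), against 2.43% of all windows. These matches are descriptions of the letters in the windows and not of bound sites. The last 220 bases before the start are shown for helicase subunits (Mcm6, Mcm5), for the mitotic kinase Cdk1 and its partner Ccnb2, for the anaphase activator Cdc20 and for topoisomerase Top2a, because the replication and mitotic genes differed in the size of their decline. Capitals mark the motifs, written on the strand of the gene, so that a motif of the opposite strand appears as its reverse complement. 2 E2f sites overlap in Mcm6 and in Mcm5.
Mcm6 (chr1:128359706-128359925, minus strand): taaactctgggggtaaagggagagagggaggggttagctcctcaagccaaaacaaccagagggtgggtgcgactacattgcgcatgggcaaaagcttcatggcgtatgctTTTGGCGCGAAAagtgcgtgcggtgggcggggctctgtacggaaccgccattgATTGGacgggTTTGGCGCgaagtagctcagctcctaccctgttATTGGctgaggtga
Mcm5 (chr8:75109289-75109508, plus strand): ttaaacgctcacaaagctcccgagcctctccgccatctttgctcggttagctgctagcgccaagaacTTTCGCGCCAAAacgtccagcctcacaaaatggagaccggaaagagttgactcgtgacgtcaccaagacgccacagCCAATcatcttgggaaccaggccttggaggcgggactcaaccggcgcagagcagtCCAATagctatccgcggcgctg
Cdk1 (chr10:69352913-69353132, minus strand): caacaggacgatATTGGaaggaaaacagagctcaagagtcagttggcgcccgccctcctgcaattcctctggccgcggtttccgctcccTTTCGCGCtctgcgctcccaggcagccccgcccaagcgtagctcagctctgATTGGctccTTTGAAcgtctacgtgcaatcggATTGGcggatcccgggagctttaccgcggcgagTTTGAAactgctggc
Ccnb2 (chr9:70421555-70421774, minus strand): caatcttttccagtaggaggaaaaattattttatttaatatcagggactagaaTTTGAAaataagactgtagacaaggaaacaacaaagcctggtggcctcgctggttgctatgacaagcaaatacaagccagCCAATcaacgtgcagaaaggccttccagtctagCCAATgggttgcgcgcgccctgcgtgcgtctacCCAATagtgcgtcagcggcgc
Cdc20 (chr4:118437344-118437563, minus strand): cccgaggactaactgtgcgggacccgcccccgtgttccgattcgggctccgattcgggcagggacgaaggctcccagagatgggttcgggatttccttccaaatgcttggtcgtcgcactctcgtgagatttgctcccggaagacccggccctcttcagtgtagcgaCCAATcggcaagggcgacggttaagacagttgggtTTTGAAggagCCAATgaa
Top2a (chr11:99024190-99024409, minus strand): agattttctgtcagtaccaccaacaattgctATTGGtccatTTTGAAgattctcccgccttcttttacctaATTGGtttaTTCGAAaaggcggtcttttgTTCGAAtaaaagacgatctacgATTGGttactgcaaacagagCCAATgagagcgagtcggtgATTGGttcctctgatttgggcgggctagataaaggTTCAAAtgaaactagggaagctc

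Between 55.1% and 71.7% of the gene spots on an array exceeded background clearly and 0 were saturated. The median signal ran from 45.4 to 191 units over a median local background of 23 to 46 units. Of the members, 43 were above background on all 24 arrays. The exceptions were Ccne2, which was dim throughout and passed the filter through 1 group alone, and Nek2, Bub1 and Kif11, which became dim at late ages. Values are log2 signals after quantile normalization. A difference was called when the adjusted p of the limma fit over all 36409 tested probes was under 0.05 and the fold change was above 2. In whole tissue, fewer cells of a type and less RNA per cell cannot be told apart.

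Nearly the whole set declined together from birth to 5 weeks. By 5 W, 44 of 47 members had fallen in EN, where 14.5% of all tested probes were called lower, and 46 of 47 had fallen in AN, where that share was 12.7%. No member was called higher. The median member stood -2.65 log2 units from its P0 level in EN (6.27-fold lower) and -3.27 in AN (9.61-fold lower), while the median of all tested probes stood at 0.04 and 0.03. The mean log2 signal over the 47 genes went from 11.47 ± 0.07 at P0 to 10.83 ± 0.23, 9.25 ± 0.06 and 8.74 ± 0.12 in EN, and from 12.02 ± 0.12 to 11.15 ± 0.24, 9.69 ± 0.22 and 8.86 ± 0.19 in AN (SD, n = 3 at each age). Arrays of different ages did not overlap in this mean in either fibre type. The members not called at 5 W were Pcna, Mcm4 and Cdc6 in EN, all with an adjusted p under the threshold but a fold under 2, and Ccne2 in AN. The EN call of Ccne2 (-1.5) rests on signals above background on 1 of 3 arrays at each age.

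**Figure D1:**
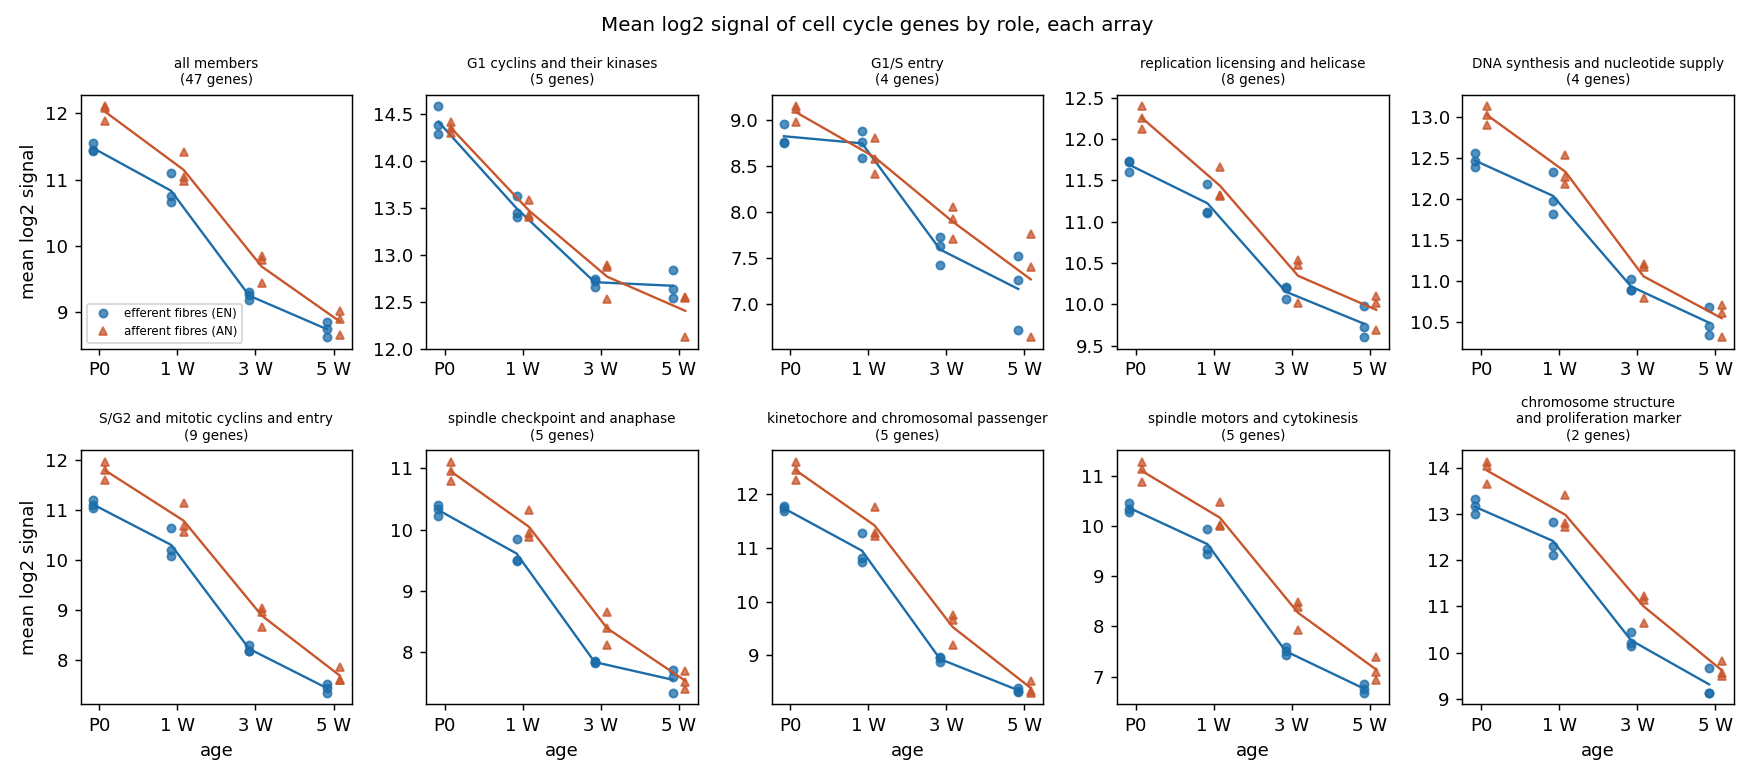
Mean log2 signal of the members by role (vertical axis, log2 units) against age (horizontal axis), for all 47 genes and for each of 9 roles. Each point is 1 array (circles EN, triangles AN) and lines join group means of 3 arrays; the mean over all members falls to 8.74 in EN, having been 11.47 at P0, and to 8.86 in AN, having been 12.02.

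**Figure D2:**
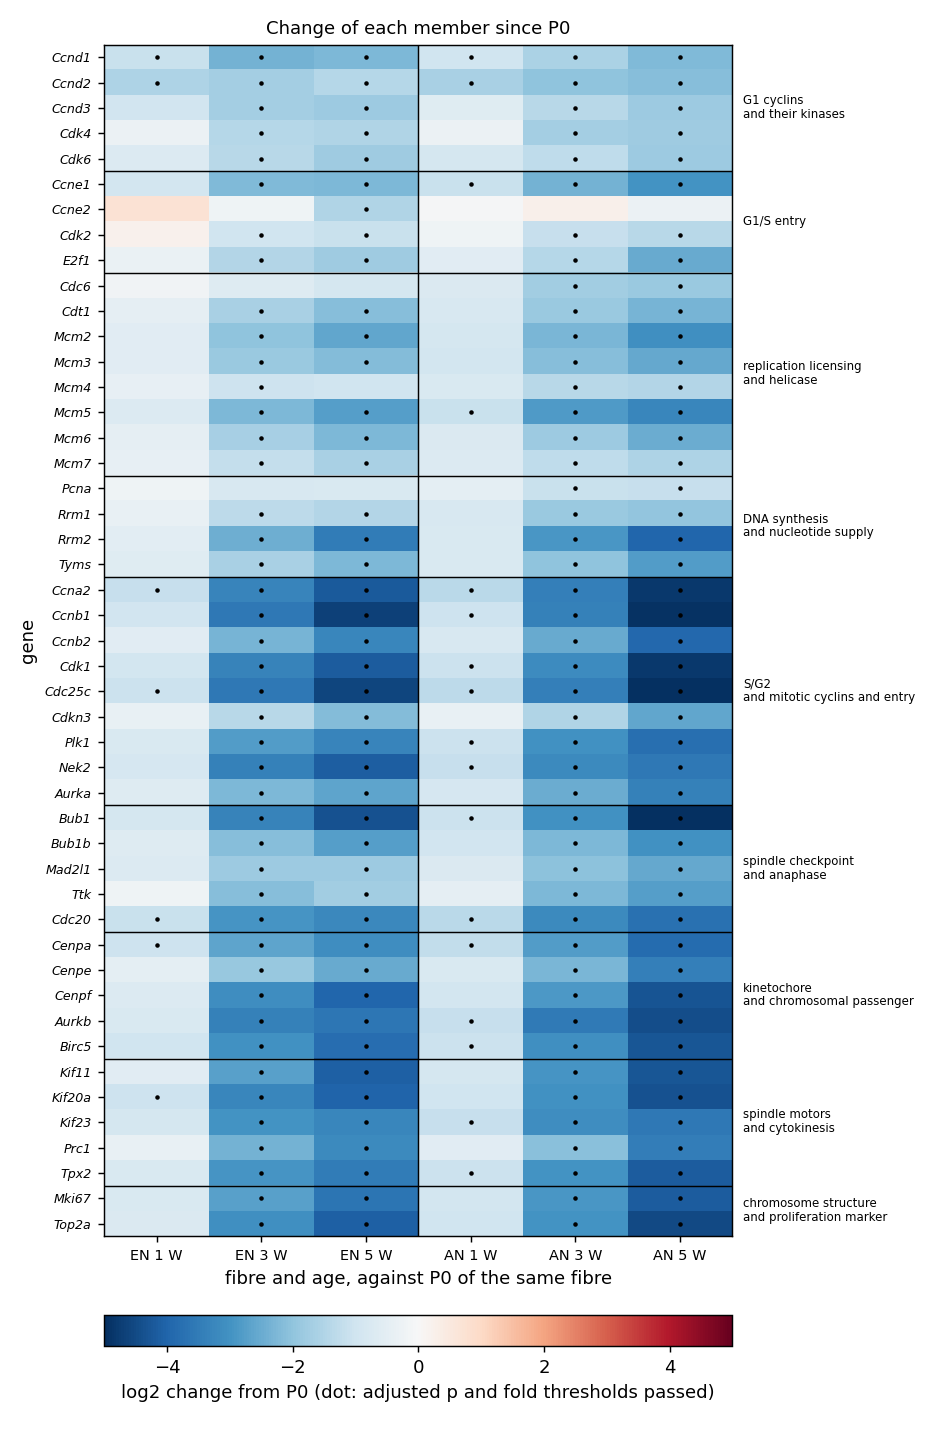
Log2 change of each member since P0 of the same fibre type (colour scale), with genes in rows by role and fibre and age in columns. Dots mark changes past the adjusted p and fold thresholds, which 7, 44 and 44 members reached in EN at 1 W, 3 W and 5 W and 17, 46 and 46 in AN.

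At 3 W, 44 members had fallen in EN (14.4% of all probes called lower) and 46 in AN (12.8%). By the member medians, the step from 1 W to 3 W, which spans a longer time than the step from P0 to 1 W, was the largest of the 3 steps in both fibre types. At 1 W, 7 members had fallen in EN (5.66% of all probes called lower) and 17 in AN (3.61%), with member medians of -0.68 and -0.88. With the adjusted p alone, 30 members were lower in EN (11.4% of all probes) and 40 in AN (9.35%). Between 1 W and 3 W, 38 members fell in EN (6.06% of probes) and 37 in AN (6.41%), with medians of -1.55 and -1.54. Between 3 W and 5 W, 5 members fell in EN (0.426% of probes) and 19 in AN (0.64%), with medians of -0.51 and -0.78. The members that fell in this last step in EN were Rrm2, Ccnb1, Cdc25c, Bub1 and Kif11. When the fit held the 6 compared arrays alone, this step kept 1 call in EN and 0 in AN. Against the change reached at 5 W, the median member had covered 21.9% of it by 1 W and 79.9% by 3 W in EN, and 26.5% and 72.8% in AN. The third 1 W samples had the highest member means of their groups, 11.09 in EN and 11.41 in AN against 10.65 and 10.74, and 10.98 and 11.04, in the other samples. Without the third 1 W sample, 14 members were called in EN at 1 W, and without the first, 4 were. In AN the count at 1 W was 9 without the first 1 W sample and 11 without the second.

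Mki67, the marker of cycling cells, gave log2 signals of 13.54, 14.05 and 13.83 in EN at P0 and 12.74, 12.90 and 13.49 at 1 W. Its EN values were 10.99, 11.32 and 10.97 at 3 W and 9.87, 10.17 and 10.46 at 5 W. In AN it read 14.26, 14.73 and 14.71 at P0, and 10.57, 10.46 and 10.21 at 5 W. No sample of a later age reached the P0 range in either fibre type. The fall of Mki67 to 5 W was -3.64 ± 0.23 in EN (standard error, 12.5-fold, adjusted p = 4.36e-10) and -4.16 ± 0.23 in AN (17.8-fold, adjusted p = 7.78e-11). Top2a, the topoisomerase that untangles replicated chromosomes, changed by -4.07 in EN and -4.5 in AN. The probe for Mki67 lies at chr7:142881591-142881650 in the mm9 coordinates of the array design.

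**Figure D3:**
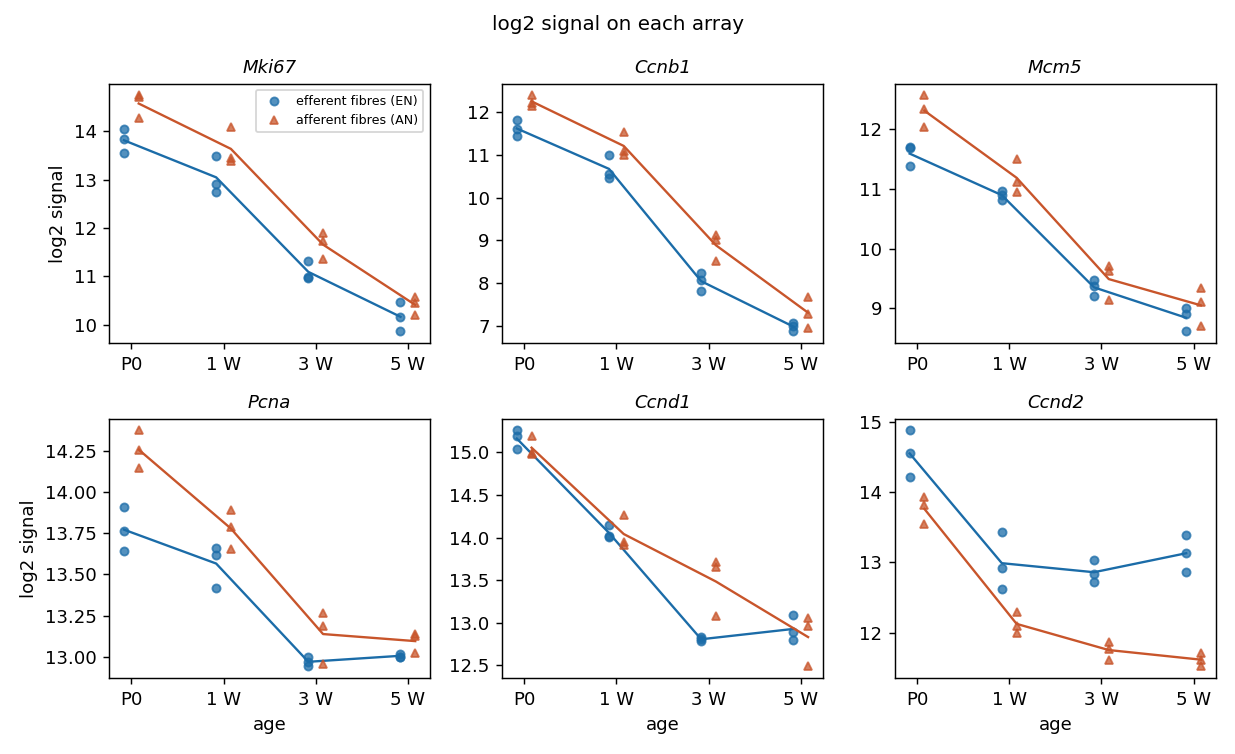
Log2 signal (vertical axis) of Mki67, Ccnb1, Mcm5, Pcna, Ccnd1 and Ccnd2 against age (horizontal axis), with 1 point per array (circles EN, triangles AN) and lines through the means of 3 arrays. Ccnb1 has the widest range of the panels, Pcna the narrowest, and Ccnd2 is higher in EN than in AN in all 12 same-numbered pairs.

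The D-type cyclins and their kinases, which act at the start of the cycle, had a smaller median decline to 5 W than the whole set, -1.77 in EN and -1.83 in AN. All 5 members of this role were called lower at 5 W in both fibre types, by 2.67- to 4.71-fold in EN and by 3.39- to 4.67-fold in AN. Ccnd1 was at 15.04, 15.26 and 15.19 in EN at P0, at 14.02, 14.01 and 14.14 at 1 W, at 12.81, 12.83 and 12.78 at 3 W and at 12.90, 12.80 and 13.09 at 5 W. Its decline in EN was thus complete by 3 W, with a 3 W to 5 W difference of 0.12 that did not pass the test. Ccnd2 had the largest change of all members at 1 W in both fibre types, -1.56 ± 0.20 in EN (adjusted p = 1.76e-05) and -1.63 ± 0.20 in AN (adjusted p = 1.06e-05). After 1 W, Ccnd2 in EN gave no further called change, and its 5 W signals of 12.86, 13.14 and 13.39 lay over the same range as its 1 W signals of 12.62, 12.92 and 13.43. The kinase gene Cdk4 was at -0.30 from P0 in EN at 1 W and reached -1.43 at 3 W, a called fall, with -1.5 at 5 W.

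The entry into S phase is carried by cyclin E with Cdk2 and by E2f1. Ccne1 changed by -2.25 in EN and -3.0 in AN to 5 W, and E2f1 by -1.78 and -2.53. Cdk2 changed by -1.1 and -1.40, and at 1 W its differences of 0.20 and -0.22 did not pass the test. E2f1 was at 8.56, 8.70 and 8.51 in EN and at 8.82, 8.83 and 9.27 in AN at 3 W. At 5 W it was at 8.37, 7.86 and 8.57 in EN and at 8.08, 7.27 and 8.25 in AN. The last step of -1.11 in E2f1 was called in AN, where all 5 W samples lay under all 3 W samples.

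The origin licensing factors Cdc6 and Cdt1 and the helicase subunits Mcm2 to Mcm7 load the helicase onto origins before replication. At 5 W, 6 of these 8 genes had fallen in EN and all 8 in AN, with medians of -2.15 and -2.41. Mcm5 had the largest change of this role, from 11.39, 11.71 and 11.69 in EN at P0 to 8.90, 8.61 and 9.01 at 5 W, and from 12.04, 12.34 and 12.57 to 9.11, 8.70 and 9.34 in AN. The groups were separate, with falls of -2.75 ± 0.19 (adjusted p = 1.41e-09) and -3.27 ± 0.19 (adjusted p = 1.49e-10). Read from 1 probe each, subunits of the same hexamer differed in the size of the decline. The size can also differ between probes of a gene. In EN from P0 to 5 W, the chosen Mcm6 probe went from 13.39 to 11.17, and a second Mcm6 probe changed by -3.09. Mcm4 was at -1.0 in EN, a fold just under the limit, and fell by 1.47 in AN, whereas Mcm2 changed by -2.59 and -3.07. Cdc6 was at -0.87 in EN, with an adjusted p of 0.00175, and fell by 1.84 in AN.

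In DNA synthesis, the sliding clamp Pcna had the smallest change of the members above background. It was at 13.77, 13.64 and 13.91 in EN at P0 and at 13.00, 13.02 and 13.00 at 5 W, a difference of -0.77 ± 0.11 (1.70-fold, adjusted p = 9.45e-06). In AN it fell from 14.15, 14.26 and 14.38 to 13.13, 13.14 and 13.02, or by 1.16 (2.24-fold). Rrm2, the subunit of ribonucleotide reductase that is made in S phase, changed by -3.49 in EN and -3.98 in AN, while its partner subunit Rrm1 changed by -1.46 and -1.98. Tyms, thymidylate synthase, changed by -2.23 and -2.81.

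The genes of G2 and mitotic entry had the largest median decline of the 9 roles in EN at 5 W, but not in AN, where 3 roles had lower medians. All 9 had fallen at 3 W and at 5 W in both fibre types, and their median at 5 W was -4.12 in EN (17.3-fold) and -3.92 in AN (15.1-fold). Cyclin B1, Ccnb1, went from 11.62, 11.81 and 11.44 in EN at P0 to 7.82, 8.23 and 8.07 at 3 W and 7.0, 6.86 and 7.06 at 5 W. In AN its signals were 12.16, 12.40 and 12.22 at P0, 9.02, 9.12 and 8.51 at 3 W and 7.67, 6.95 and 7.28 at 5 W. No 2 ages overlapped in either fibre type from P0 to 5 W. The fall of Ccnb1 to 5 W was -4.65 ± 0.20 in EN (25.1-fold, adjusted p = 3.56e-12) and -4.96 ± 0.20 in AN (31.1-fold, adjusted p = 2.35e-12). Cdk1 changed by -4.17 and -4.83, cyclin A2 (Ccna2) by -4.18 and -4.83, and the phosphatase Cdc25c, which activates Cdk1, by -4.59 and -5.01. Cdkn3, a phosphatase that acts on Cdk1 and Cdk2, had the smallest change of this role, with -2.16 and -2.60. Nek2, a centrosomal kinase, was not above background on any EN array at 3 W, so it was at least 10.5-fold lower there than at P0 (adjusted p = 6.06e-07). The bound sets the mean of the bright group against the detection limit, or the measured value where higher, of each dim array. For Nek2 the measured values were the higher, so its bound equals its measured fold change.

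The spindle checkpoint and anaphase genes differed among themselves. Bub1, a checkpoint kinase, changed by -4.34 in EN and -5.0 in AN to 5 W, where it was above background on 1 of 3 arrays of each fibre type. Mad2l1, the checkpoint protein that binds Cdc20, changed by -1.82 and -2.57, and its 3 W to 5 W difference in EN was 0.01. Ttk, a kinase upstream of both, changed by -1.72 in EN and -2.76 in AN. Cdc20, the activator of the anaphase-promoting complex, was already lower at 1 W, at -1.09 in EN (adjusted p = 4.94e-05) and -1.33 in AN (adjusted p = 6.13e-06). Cdc20 reached -3.24 and -3.73 at 5 W.

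All 5 kinetochore and chromosomal passenger genes fell by 5 W, with medians of -3.61 in EN and -4.28 in AN, and so did all 5 spindle motor and cytokinesis genes, with medians of -3.50 and -4.16. Cenpf, a kinetochore protein of G2 and mitosis, went from 11.41, 11.49 and 11.28 in EN at P0 to 7.46, 7.38 and 7.44 at 5 W, and Aurkb, the passenger kinase, from 10.26, 10.30 and 10.56 to 6.81, 6.86 and 6.62. The ranges at both ages were narrow beside these changes of -3.97 ± 0.20 and -3.61. Cenpa, the histone variant of centromeres, changed by -3.10 in EN and -3.86 in AN, and was among the members called at 1 W in both fibre types. The kinesin Kif11 was above background on no EN array at 5 W and was at least 9.93-fold lower there than at P0 (adjusted p = 4.86e-11).

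The members ranked alike by the size of their decline in the 2 fibre types, though most fell further in AN. Across the 47 members, the changes to 5 W in EN and AN had a Pearson correlation of 0.95 and a Spearman correlation of 0.96, over genes of the same arrays and slides, which are not independent. The change was larger in AN for 42 members and in EN for 5. Between AN and EN, 0 members passed both thresholds of the limma fit at P0 (0.327% of all probes did) and 0 at 1 W (2.8%), whereas 37 and 23 had an unadjusted p under 0.05 (7.32% and 13.8% of all probes). By the adjusted p alone, 0.505% of all probes were lower and 0.222% higher in AN at P0. The members still leaned one way. At P0, 44 of 47 were higher in AN (51.3% of all probes were), the median difference was 0.62 (1.54-fold), and 39 members had AN arrays all above the EN arrays, against 6.76% of all probes. Same-numbered AN and EN samples of an age deviated together, and a fit with a term for each such pair, chosen after seeing the data, gave 31 members higher and 1 lower in AN at P0 by the adjusted p (1.65% and 2.22% of all probes), against 3 and 0 without the pairing. These 3 were Mcm4, Pcna and Rrm1. The pairing was least marked at 3 W, where same-numbered samples correlated at 0.11 to 0.21. With the pairing the counts of members higher in AN were 16 at 1 W (5.11% of probes), 27 at 3 W (8.38%) and 7 at 5 W (10.7%). The 7 at 5 W included the dim genes Ccne2, Nek2 and Kif11. At that age these were above background on 1, 2 and 1 of 3 AN arrays and on 1, 1 and 0 of 3 EN arrays.

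The AN excess was smallest at 5 W. From P0 to 5 W, its median over the members was 0.62, 0.38, 0.46 and 0.13. In the pairs it was 0.49, 0.65 and 0.70 at P0 and 0.28, 0.05 and 0.04 at 5 W, so every P0 pair lay above every 5 W pair. For a change of the difference between P0 and a later age, 0 members passed both thresholds of the limma fit at 1 W, 3 W and 5 W (0.0632%, 0.53% and 0.948% of all probes). An unadjusted p under 0.05 was found for 1, 5 and 17 of 47 (7.08%, 9.22% and 10.8% of all probes). At 5 W the lowest adjusted p was 0.068 for Ttk. With the pair term, 13 members had a lower AN minus EN difference at 5 W than at P0 by the adjusted p (3.74% of all probes lower). For Ccnd2, which was lower in AN at both ages, this was a widening, and for the other 12, all higher in AN at P0, the excess shrank or turned, among them Ttk (-1.04, adjusted p = 0.028), Cdc6 (-0.97, adjusted p = 0.011) and Cenpe (-0.88, adjusted p = 0.00936). At 3 W, 1 member was called higher (2.24% of probes) and 1 lower (0.89%) in AN. Cenpf was the higher, at 9.45, 9.64 and 8.79 in AN against 8.42, 8.24 and 8.14 in EN, a difference of 1.03 ± 0.20 (adjusted p = 0.00451). The third 3 W AN sample stood apart, with a member mean of 9.44 against 9.79 and 9.84, and without it 9 members were called at 3 W, 8 of them higher in AN. The 2 calls became 1 without the first or without the second 3 W AN sample.

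**Figure D4:**
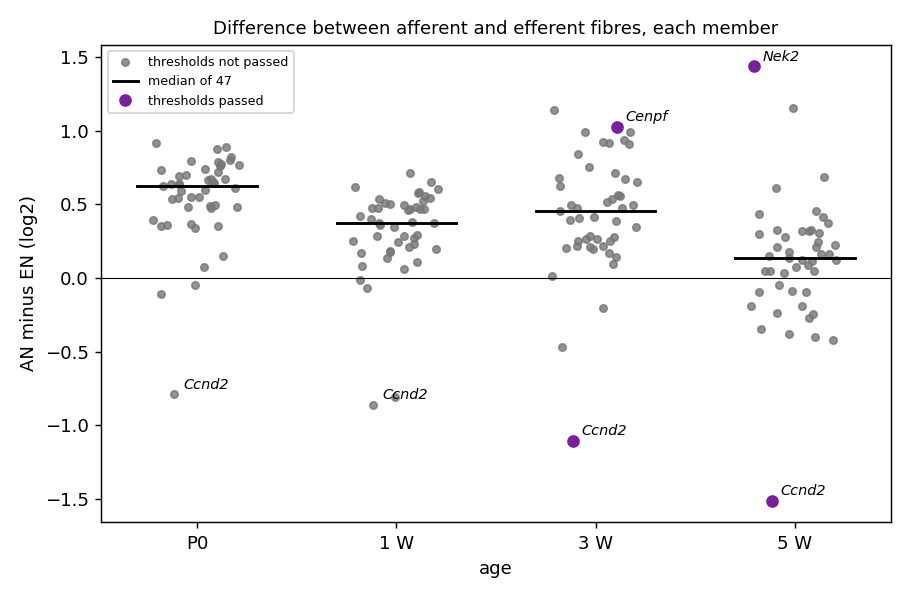
Difference between AN and EN (vertical axis, log2 units) for each of the 47 members at 4 ages (horizontal axis), with horizontal bars at the medians of 0.62, 0.38, 0.46 and 0.13. Most points lie above 0 up to 3 W, and Ccnd2 lies below 0 at every age.

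Ccnd2 was lower in AN than in EN at each age. Other members with a lower mean in AN included Cdc6 at 3 W (-0.47) and E2f1 at 5 W (-0.40). It read 14.21, 14.87 and 14.56 in EN and 13.54, 13.81 and 13.93 in AN at P0. At 5 W it read 12.86, 13.14 and 13.39 in EN and 11.61, 11.52 and 11.72 in AN. EN exceeded AN without overlap at each age, by 0.79 at P0 (adjusted p = 0.0787), 0.86 at 1 W (adjusted p = 0.0158), 1.11 at 3 W (adjusted p = 0.00233) and 1.51 at 5 W (adjusted p = 0.000111). The widening from P0 to 5 W, -0.72 ± 0.28 for AN minus EN, had an adjusted p of 0.30, and 0.0499 with the pair term. The Ccnd2 probe lies at chr6:127080268-127080327 on the minus strand in mm9. At 5 W, where 2.51% of probes were called higher and 0.832% lower, Nek2 was called higher in AN by 1.44 (adjusted p = 0.025), but its AN values of 5.20, 7.08 and 5.05 rest on the second sample, and without that sample 1 member, Ccnd2, was called. Ccnd1 was higher in AN at 3 W by 0.68 (adjusted p = 0.0193), with 13.65, 13.72 and 13.09 in AN against 12.81, 12.83 and 12.78 in EN, and its AN and EN values overlapped at the other ages.

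A second list of 108 other cell cycle genes, all tested, gave 58 lower and 6 higher at 5 W in EN and 65 lower and 6 higher in AN. Of all probes, 14.5% were called lower and 15.5% higher in EN, and 12.7% and 15.2% in AN. The same shares stand beside the counts of the lists that follow. The kinetochore, condensin and spindle genes had 21 of 25 lower in each fibre type, among them the kinesins Kif15 (-5.04 and -4.83) and Kif4 (-4.59 and -4.79). Of the 32 origin, helicase and polymerase genes, 19 were lower in EN and 22 in AN, with thymidine kinase Tk1 at -3.57 and -4.02 and the maintenance methylation cofactor Uhrf1 at -3.73 and -4.07, while Gins4 and Orc1 were at 0.94 and 0.83 in EN, under the fold limit. The mitotic kinases, phosphatases and ubiquitin ligase genes had 10 and 11 of 17 lower, with Melk at -4.41 and -4.63 and Pbk at -4.19 and -4.48, and Pttg1 at 0.36 and 0.27 not called. Among the 18 regulators around Rb and E2f, the mitotic activator Foxm1 changed by -3.39 and -3.80 and the repressor E2f7 by -4.12 and -3.91. The pocket protein Rbl2 rose by 1.15 and by 1.13, and Lin52, its partner in the repressive DREAM complex, by 1.5 and by 1.34. In the list of 9 genes for cycle exit and Trp53 targets, the antiproliferative Btg2 rose (1.83 and 1.62). Gas6, which is in this list by its name and not for an antiproliferative role, rose too (1.43 and 1.04). Gas1 fell (-2.14 and -1.94), and Trp53 was at -0.71 and -0.86 and not called.

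The inhibitors of cyclin-dependent kinases did not move as a group. Of 7, 2 rose and 2 fell by 5 W in each fibre type. Of all probes, 15.5% were called higher and 14.5% lower in EN, and 15.2% and 12.7% in AN. Cdkn1a (p21) went from 12.98, 12.66 and 12.58 in EN at P0 to 14.84, 15.03 and 15.00 at 3 W and 14.56, 14.09 and 14.38 at 5 W, and from 12.47, 11.52 and 12.17 in AN to 14.86, 15.02 and 14.29 and then 14.72, 14.34 and 15.15. Its rises to 5 W were 1.61 ± 0.25 (adjusted p = 3.32e-05) and 2.68 ± 0.25 (adjusted p = 7.12e-08). Cdkn1c (p57) fell from 17.31, 17.36 and 17.60 in EN to 12.74, 13.29 and 13.22, and from 17.06, 16.89 and 17.34 in AN to 12.86, 13.04 and 12.98. That is a change of -4.34 in EN and -4.14 in AN, as large as those of the mitotic genes, in a gene that restrains the cycle. Cdkn1b (p27) rose by 1.61 in AN (adjusted p = 1.25e-07) and stood at 0.43 in EN, where it did not pass the fold limit. Cdkn2a rose by 1.5 in EN and was at 0.98 in AN (adjusted p = 0.0619), and Cdkn2c changed by -1.26 and -1.42. Cdkn2b was at 0.84 in EN and -0.12 in AN, and Cdkn2d at -0.31 in both.

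**Figure D5:**
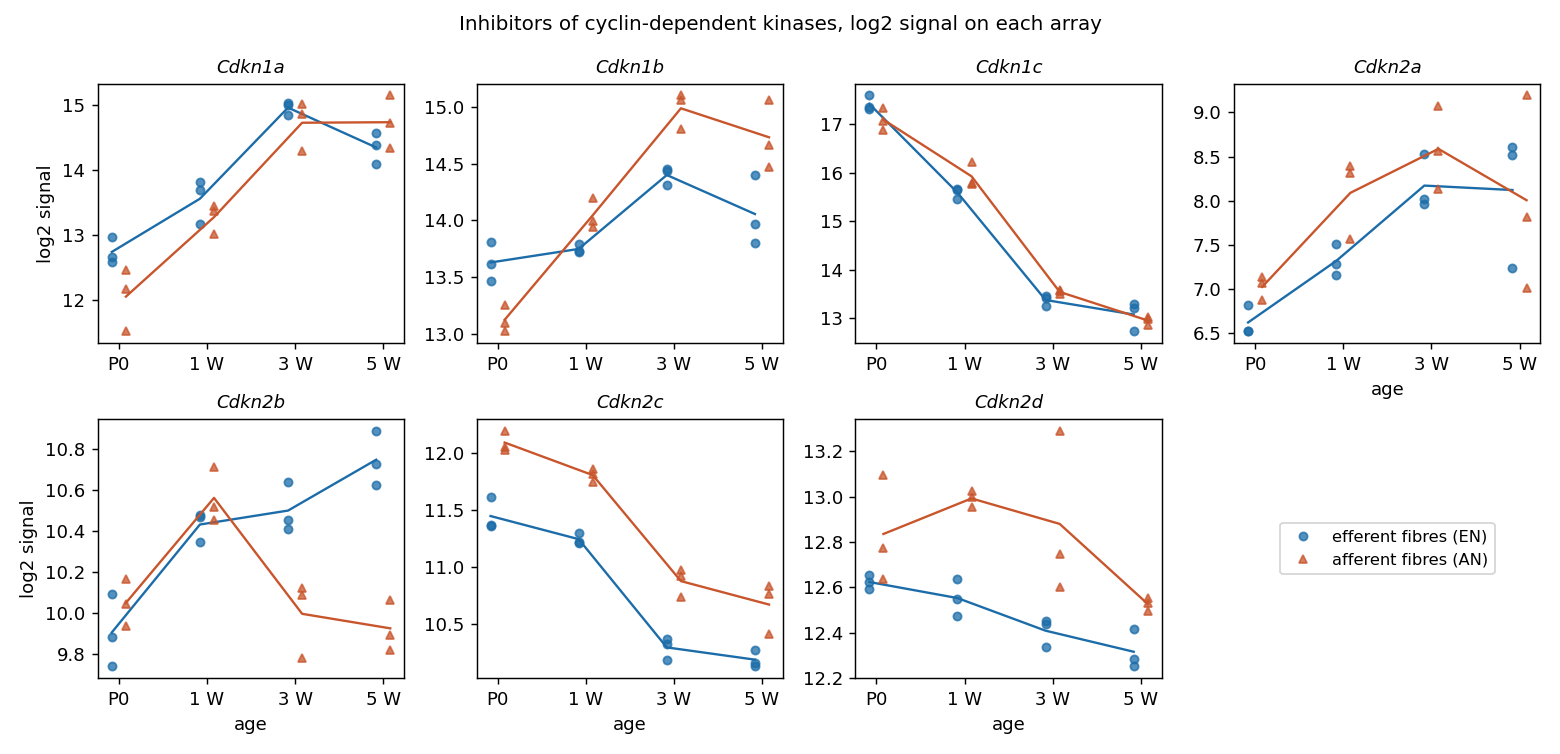
Log2 signal (vertical axis) of 7 inhibitor genes of cyclin-dependent kinases against age (horizontal axis), with 1 point per array (circles EN, triangles AN) and lines through the means of 3 arrays. Cdkn1a goes up and Cdkn1c down with age in both fibre types, and Cdkn2b parts between them from 3 W.

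Members with different promoter letters differed in the size of their decline, as a description. Letters and roles overlapped, so a difference by letters cannot be told apart from a difference by role. Of the 8 members with an E2f site, 6 were origin licensing and helicase genes. No window of the D-type cyclin and kinase, S phase entry or DNA synthesis genes held a CHR. The 18 members with a CHR had a median change to 5 W of -3.25 in EN and -3.74 in AN, and the 20 without had -2.15 and -2.54. With a CCAAT box the medians of 28 members were -3.14 and -3.51, and without it those of 10 members were -1.82 and -2.43. With an E2f site the medians of 8 members were -2.15 and -2.41, and without it those of 30 members were -2.92 and -3.42. Ccnb1, whose window held neither a CHR nor an E2f site, had the largest change of all members in EN (-4.65). Among the 7 windows of G2 and mitotic entry genes, that of Cdk1 alone held an E2f site, beside its CHR.

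Other probes and comparisons within a slide gave the same direction. Of 40 other tested probes for 21 members, 35 were called lower at 5 W in EN and 37 in AN, and 0 were called higher. The arrays lay on 4 slides, and all 3 W samples shared a slide with 1 pair of 5 W samples. With slide as a term in the fit, 43 members in EN and 46 in AN were lower at 3 W than at P0, and 40 and 38 were lower than at 1 W. Within a slide, the median member was lower at 1 W than at P0 by 0.42 to 0.89, and lower at 5 W than at P0 by 2.77 in EN and by 3.59 in AN. Within the slide that held 3 W and 5 W, it was lower at 5 W by 0.39 in EN and by 0.65 in AN.

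Some marker lists of cell types moved with age beside these genes, and others changed less. The 6 fibroblast markers were at 15.67 ± 0.10 in EN and 15.66 ± 0.20 in AN at P0, and at 15.91 ± 0.12 and 15.48 ± 0.20 at 5 W (SD, n = 3). The lists for neurons in general, motor neurons, astrocytes, oligodendrocytes and their precursors are not given here. The 10 Schwann cell markers, all above background on all arrays, had a mean log2 signal of 15.01 ± 0.04 in EN and 14.63 ± 0.11 in AN at P0, and 15.91 ± 0.07 and 16.20 ± 0.09 at 5 W (SD, n = 3). Their log2 summed signal ran from 19.0 to 19.6 at P0 and from 20.3 to 20.4 at 5 W. The 6 endothelial markers were all above background on all arrays and stood higher in AN than in EN at P0, at 11.54 ± 0.33 against 10.996 ± 0.081. They stood lower in AN at the later ages, at 10.97, 10.55 and 10.71 against 11.33, 10.98 and 10.97. The log2 summed endothelial signal ran from 14.6 to 15.3 in AN and from 14.4 to 14.7 in EN at P0, and from 14.0 to 14.7 and from 14.2 to 14.9 at 5 W. The 6 sensory neuron markers were at 12.41 ± 0.75, 12.63 ± 0.11, 11.13 ± 2.52 and 9.70 ± 1.53 in AN from P0 to 5 W. In EN they were at 12.13 ± 0.27 at P0 and from 1 W on at 8.30 to 8.47, where 4 to 6 of the 6 were above background. The third 3 W AN sample stood at 14.01 for them, against 9.40 and 9.97 in the other samples. The 6 skeletal muscle markers were at 13.58 ± 0.96 in EN and 12.28 ± 0.79 in AN at P0 and at 9.45 and 9.40 at 5 W. The mean over the 7 tested of 8 erythroid markers was highest at 1 W in the third samples. It was 10.90 in EN and 10.59 in AN there, against 8.64 to 9.19 in the others. The 6 macrophage markers stood at 11.33 in EN and 11.41 in AN at P0 and at 12.39 and 12.18 at 5 W. Which cells carried the member transcripts was not tested.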

How the data were processed

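RNA of 24 samples was labelled with Cy3 and hybridised to one-colour Agilent arrays, which the authors scanned with Agilent Feature Extraction 10.7.1.1. The deposited intensity columns hold the processed signal, mean signal and background of each spot, with marks for spots well above background, outliers and saturation. The deposited series table holds log2 values that, per the methods, the authors quantile normalized, and each of its columns correlated with the own array here at 0.999996 or more. Samples were grouped by the fibre type and age in the labels. Outlier spots were left out, spots of a probe were averaged, and log2 values of 56605 gene probes were quantile normalized, as in the methods. A probe was kept where every array of some group read it well above background, and the 36409 kept were tested with limma 3.58.1 in R 4.3.3 (lmFit and eBayes on 8 group means, Benjamini-Hochberg adjustment over 36409 probes, threshold of 0.05 with a fold above 2). The number of arrays, 3 per group, limits the precision.

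The members and gene lists were chosen with earlier results of these data known. Each gene is its brightest probe over 24 arrays. Beyond the members, the text names every inhibitor of cyclin-dependent kinases and, in each other list, the 2 genes with the highest and the 2 with the lowest mean change at 5 W. Anln, Bub3 and Cdc27, which this rule also names, ranged from -0.47 to 0.04 and were not called. Of the members, 46 of 47 probe accessions matched RefSeq, all with the same symbol. The accession of the remaining member was not matched. Probe coordinates are the mm9 coordinates of the array files and were not mixed with the GRCm38.p6 coordinates of the RefSeq promoters. The fit was tested on simulated data. Tables and figures were made in Python 3.11.15 with pandas 2.3.3, scipy 1.17.1 and matplotlib 3.10.9.

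Same-numbered AN and EN samples of an age were taken as pairs. The correlation of their deviations from the group means was above 0.1 in all 12 pairs (0.11 to 0.66), and they share a slide. Samples of different numbers gave -0.48 to 0.12. Deviations within a group cancel, so the ranges are not independent. The pairing is not clear at 3 W, where pairs gave 0.19, 0.11 and 0.21 and an unmatched combination 0.12. All 3 W samples shared a slide, as did the P0 samples numbered 2 and 3, so the slide does not mark those pairs. The alternatives were another scaling, background correction, filter, the series table, slide or replicate number as a block, array weights, fewer arrays and other probes.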

Additional observations from a re-analysis of the deposited data

Results flagged for a closer look

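The change since P0 differed between the fibre types for 5 of the 108 genes of the wider cell cycle list and for no member. This is by the adjusted p of the limma fit, with no fold limit. By that rule, 0.294% of all probes were lower and 0.327% higher at 3 W, and 0.45% and 0.703% at 5 W. The values below are the AN minus EN difference at the later age minus that at P0, on the log2 scale. For the inhibitor Cdkn1b the difference was 1.09 at 3 W (adjusted p = 0.0328) and 1.18 at 5 W (adjusted p = 0.0139). For the inhibitor Cdkn2b it was -0.97 at 5 W (adjusted p = 0.0115). For Cdc45, a helicase cofactor, it was -0.93 at 5 W (adjusted p = 0.0153), and for the kinetochore gene Zwilch it was -1.02 at 5 W (adjusted p = 0.0193). For the antiproliferative gene Btg1 it was 0.74 at both ages (adjusted p = 0.0402 and 0.0282).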

How the results depend on the processing

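Of 348 recomputed counts of called members, 299 stayed within 1.5 times the reported value. The exceptions lay in the 1 W comparisons, the step from 3 W to 5 W and the comparisons between fibre types. In EN at 1 W the count was 11 with array weights and 30 with no fold limit. In AN at 1 W it was 9 when scaled to the 75th percentile and 40 with no fold limit. From 3 W to 5 W in EN it was 0 with normexp, 3 with the probes above background on all arrays, 8 with array weights, 1 with the compared arrays alone and 11 with no fold limit, and in AN it was 11 with normexp and 0 with the compared arrays alone. Between fibre types at P0 and 1 W, 3 and 1 members passed with no fold limit. At 3 W the count was 1 with normexp, 10 with array weights, 1 with all probes of a gene averaged and 12 with no fold limit. At 5 W it was 1 with normexp, 1 with the probes above background on all arrays, 1 with array weights and 0 with the compared arrays alone. For the change of the fibre difference since P0, an unadjusted p gave 1 member at 3 W and 1 at 5 W. The cause was not tested.

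A fit with the pair within an age as a replicate block was chosen after seeing the data. In it, 1 member passed both thresholds for the change of the fibre difference at 3 W (Cdc6) and 1 at 5 W (Ttk). Between fibre types, 3 did at 3 W (Ccnd2, Cenpf and Nek2) and 3 at 5 W (Ccnd2, Nek2 and Ccne2). Nek2 was above background on 0 of 3 EN arrays at 3 W, and Ccne2 on 1 of 3 arrays of each fibre type at 5 W. The share of all probes passing both thresholds was not counted for this fit. The replicate number as a block over all ages moved no count by over 1.5 times. Leaving out 1 sample, or all samples numbered 3 (chosen after seeing the data), gave ranges of 4 to 14 called members in EN and 9 to 25 in AN at 1 W, 42 to 44 and 44 to 46 at 3 W, and 42 to 45 and 46 to 46 at 5 W. From 1 W to 3 W the ranges were 35 to 38 in EN and 30 to 38 in AN, and from 3 W to 5 W they were 1 to 9 and 16 to 20. In the last step in EN, the count was 1 without the second 3 W sample, 2 without the first 5 W sample, 3 without the first 3 W or the second 5 W sample and 8 without the third 5 W sample. Between fibre types they were 0 to 1 at P0, 0 to 1 at 1 W, 1 to 9 at 3 W and 1 to 2 at 5 W, and for the change since P0 they were 0 to 0, 0 to 0 and 0 to 1.

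Of single genes, Ccne2 alone reversed its sign, in changes that did not pass the test and with signals near the detection limit of 3.71 to 5.87. In AN it was 0.029 with normexp at 1 W, -0.46 with slide as a block at 3 W and 0.082 with array weights at 5 W. Without single samples it ran from -0.45 to 0.12 in EN at 3 W, where the sign turned without the second P0 (0.12) and the third 3 W sample (0.086). In AN it ran from -0.41 to 0.32 at 1 W, -0.024 to 0.54 at 3 W and -0.80 to 0.33 at 5 W, where the sign turned without the first P0 (0.0097) and the first 1 W sample, the first 3 W sample and the second 5 W sample.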
